A study of Homo sapiens with 8 samples.

Results

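The 9 mRNAs described here encode the main structural proteins of basement membranes, and their contact with the RNA-binding protein LARP6 was read from eCLIP in human hepatic stellate cells. They are COL4A1 and COL4A2 (type IV collagen), COL18A1 (type XVIII collagen), LAMA4, LAMB1 and LAMC1 (laminin chains), NID1 and NID2 (nidogens) and HSPG2 (perlecan). A tested cluster, meaning a stretch of piled-up immunoprecipitated reads that the authors compared with a size-matched input, was counted for a gene when its midpoint fell within the gene's GRCh38 bounds on the gene's strand. This gave 1780 of 176826 tested clusters over 4 libraries, namely 392 of 51273 and 390 of 39880 in control replicates 1 and 2, and 427 of 31137 and 571 of 54536 in TGFβ1 replicates 1 and 2. The same rule gave 5 of 627 peaks in the control list and 7 of 1008 in the TGFβ1 list that the authors made from both replicates of a condition.

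The study compared wild-type stellate cells, grown in serum-containing medium, with and without TGFβ1 at 5 ng/ml for a time that the labels do not give. The control cells are labelled both untreated and DMSO. All cells were crosslinked with ultraviolet light of 254 nm, and RNA was recovered with an anti-LARP6 antibody from 2 libraries per condition, each beside an input library taken from the same size range of the blot without antibody. The cell line is named only as HSCs, and nothing in the labels ties the replicates to different cultures. The spread between libraries, on which the permutation tests rest, may therefore be technical.

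Basement membranes are thin sheets of matrix that underlie epithelia and endothelia and surround muscle, fat and some mesenchymal cells. Laminin trimers of an alpha, a beta and a gamma chain polymerise on the cell surface, type IV collagen builds a second, covalently linked network, and nidogens and perlecan join these networks. In the liver, stellate cells lie in the space between hepatocytes and sinusoidal endothelium, and basement membrane proteins accumulate there during fibrosis. LARP6 is known for binding a stem-loop near the 5′ end of fibrillar collagen mRNAs.

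Each cluster carries the authors' log2 fold over input and the authors' −log10 p of that comparison. Enrichment required a log2 fold of 3 or more together with a −log10 p of 3 or more. The lists hold no read counts, so the depth is unknown. TGFβ1 replicate 2 had the highest share of enriched clusters, and counts are therefore given by library. Of 13 stellate cell and fibroblast markers, 10 had tested clusters in all 4 libraries, among them PDGFRB, COL1A1 and DCN, while DES, LRAT and RGS5 had none in any library. Hepatocyte markers had 0 clusters (5 genes), endothelial markers 0 to 2 and macrophage markers 2 to 4 per library.

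Few clusters of the basement membrane mRNAs were enriched. Control replicate 1 had 2 enriched clusters (0.51%, 95% Wilson interval 0.14 to 1.84) against 1.21% of all its tested clusters. Control replicate 2 had 8 (2.05%, 1.04 to 3.99) against 2.09%. TGFβ1 replicate 1 had 6 (1.41%, 0.646 to 3.03) against 2.69%, and TGFβ1 replicate 2 had 17 (2.98%, 1.87 to 4.72) against 3.64%. In each library the share was below that of all clusters, and the background lay inside the interval in all 4. The intervals cover counting error only, and neighbouring clusters of a gene are not independent.

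The mean share was 1.28% ± 1.09 over the control and 2.19% ± 1.11 over the TGFβ1 libraries (SD, n = 2 each; exact permutation test over libraries, two-sided, p = 0.667). The 2 groups overlapped, with control replicate 2 above TGFβ1 replicate 1. With a −log10 p limit of 2 they did not overlap (1.54% ± 0.729 against 2.72% ± 0.863; exact permutation p = 0.33). They did overlap with a log2 fold limit of 2 or 4, a −log10 p limit of 5, or clusters joined to sites (exact permutation p = 0.667 each). With both limits at 3, the means among all clusters were 1.65% and 3.16%. Those groups did not overlap, at 1.21% and 2.09% in the control and 2.69% and 3.64% in the TGFβ1 libraries. The means among all clusters at a −log10 p limit of 2 are not given here. With 2 libraries a condition, 0.33 is the smallest two-sided p this test can give. The median log2 fold of the 9 genes' clusters was 0.38, 0.48, 0.62 and 0.60 in control replicates 1 and 2 and TGFβ1 replicates 1 and 2, beside 0.38, 0.85, 0.94 and 0.82 over all clusters. It was equal to that of all clusters in control replicate 1 and lower in the other libraries.

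**Figure D1:**
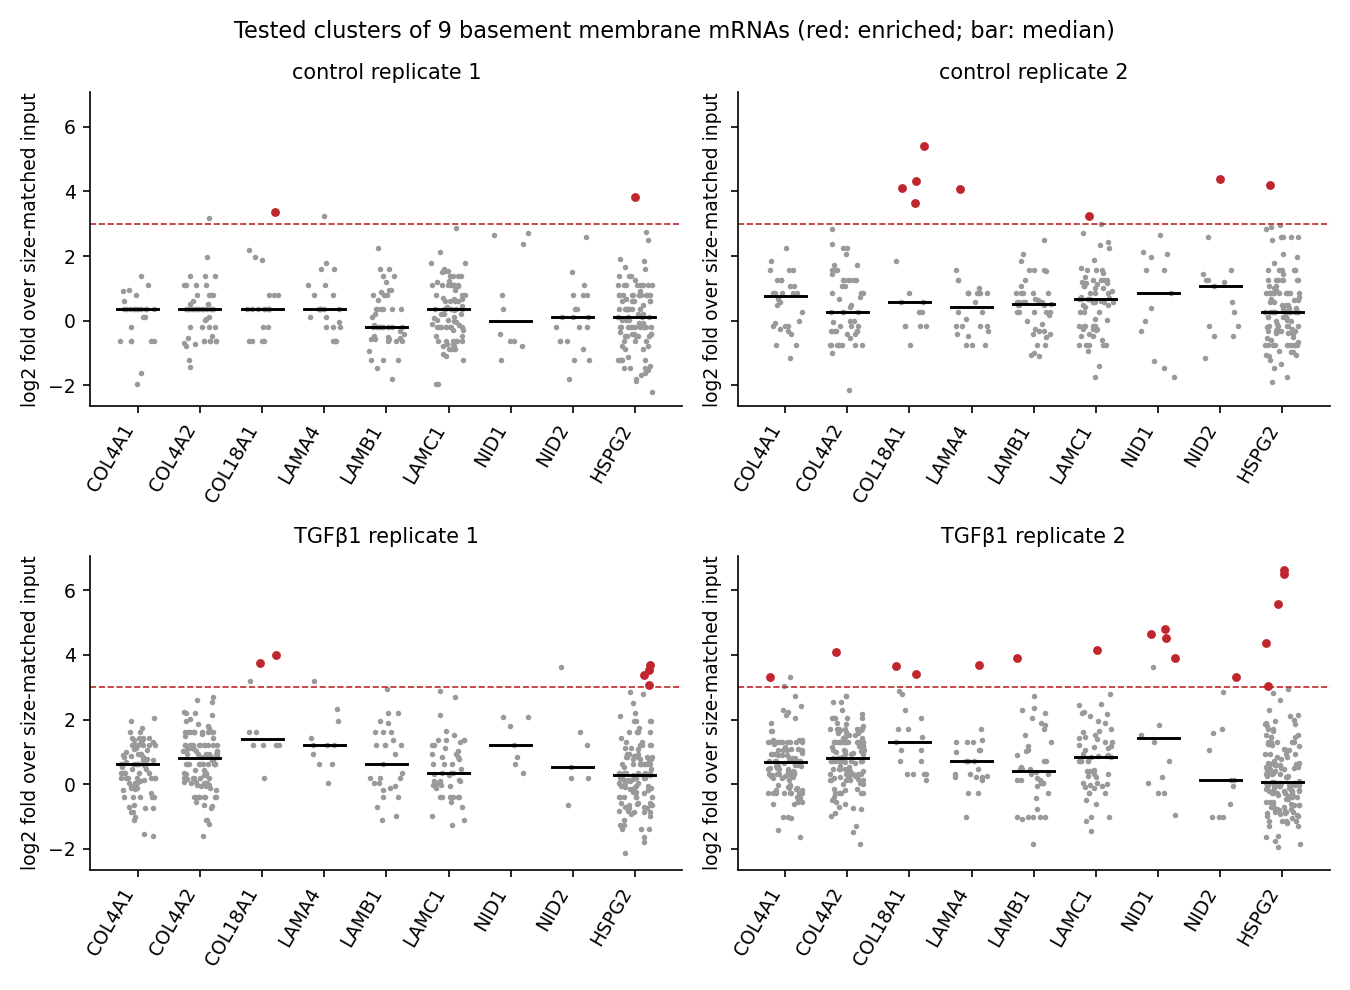
Log2 fold over size-matched input (y axis) of every tested cluster of the 9 genes (x axis), in 1 panel per library; red points are enriched clusters, black bars are medians and the dashed line is a log2 fold of 3. Most clusters lie between −2 and 3, and the highest values are those of HSPG2 in TGFβ1 replicate 2 (6.63) and COL18A1 in control replicate 2 (5.39).

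HSPG2 and COL18A1 held 11 and 9 of the 33 enriched clusters. Joined within each library and summed over the 4 libraries, these were 6 and 5, so that 1 place can count once per library. With a log2 fold limit of 2 LAMC1 had 12 and COL4A2 8 beside 19 for HSPG2 and 10 for COL18A1. Without HSPG2 and COL18A1, the other 7 members had 0 of 268 and 3 of 255 enriched clusters in the control libraries. In the TGFβ1 libraries they had 0 of 298 and 10 of 396. In the lists made from both replicates, 3 of the 9 genes had a control peak (HSPG2, COL18A1 and LAMC1) and 2 had a TGFβ1 peak (HSPG2 and COL18A1). Among all protein-coding genes that had tested clusters in each library of a condition, 3.91% and 7.08% had a peak in the control and TGFβ1 lists. Among genes with at least 20 tested clusters over the 4 libraries, as all 9 members had, these shares were 6.96% and 12.1%. With so few genes, no more than the counts can be given. Of the 5 control peaks 4 overlapped a TGFβ1 peak, and of the 7 TGFβ1 peaks 6 overlapped a control peak. Some of these peaks abut, and the 5 and 7 made 4 and 3 sites when joined. The same overlap over all peaks of the 2 lists is not given here, so these counts describe the members only.

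When enriched clusters and list peaks at most 20 nt apart were joined, the 9 genes held 15 sites, at least 1 in each gene. Genes with an enriched cluster numbered 2 and 5 in control replicates 1 and 2, and 2 and 9 in TGFβ1 replicates 1 and 2. A site in each gene thus rests on TGFβ1 replicate 2, and the share of all genes with such a site is not given here. Only the COL18A1 site at 75.6 kb was enriched in all 4 libraries. The HSPG2 site at 56.8 kb was enriched in 3, and 3 sites (HSPG2 at 47.3 kb, LAMA4 at 140.8 kb and NID2 at 8.8 kb) in 2. The other 10 were enriched in a single library, 8 of them in TGFβ1 replicate 2 and 2 in control replicate 2. Distances count genomic bases from the gene's annotated 5′ end, introns included. The reference used here gives gene bounds without exons, so whether a site is exonic, intronic or untranslated is not given, and the sequence under the sites was not used here.

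**Figure D2:**
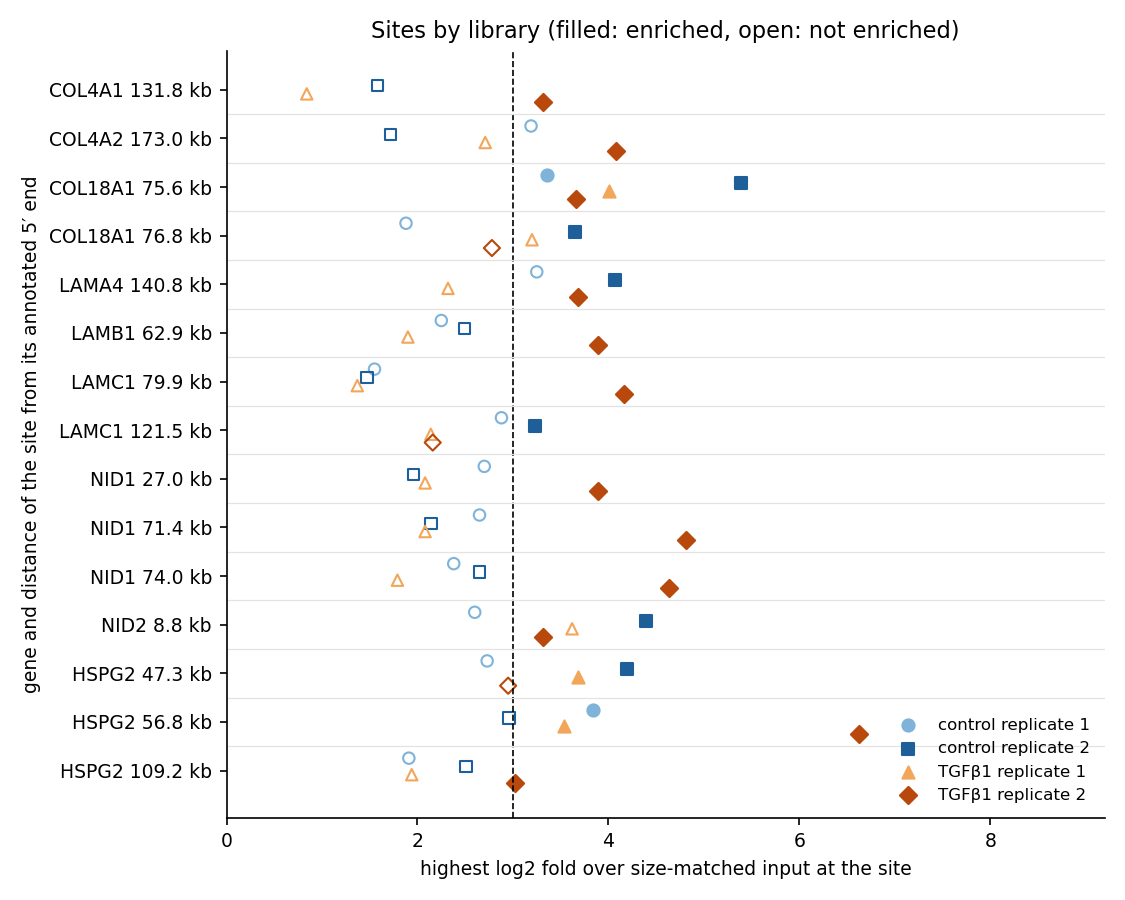
Highest log2 fold over size-matched input (x axis) at each of the 15 sites (y axis: gene and distance from its annotated 5′ end), with 1 marker per library; filled markers are enriched, open markers are not, and the dashed line is a log2 fold of 3. The COL18A1 site at 75.6 kb has 4 filled markers, and all 3 NID1 sites have a filled marker for TGFβ1 replicate 2 alone.

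COL4A1 and COL4A2 encode the alpha-1 and alpha-2 chains of type IV collagen, which assemble into the most widespread form of this network. COL4A1 spans chr13:110148963-110307157 on the minus strand (158.2 kb) and COL4A2 spans chr13:110307284-110513209 on the plus strand (205.9 kb). The genes lie head to head, and their starts are parted by 126 bases. That stretch is shown because the numbers of clusters of both genes differed in the same direction between conditions (below). It is from the RefSeq promoter table (GRCh38.p14, chr13:110307158-110307283, plus strand), with matches to CCAAT and GGGCGG in capitals:

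COL4A1-COL4A2 interval: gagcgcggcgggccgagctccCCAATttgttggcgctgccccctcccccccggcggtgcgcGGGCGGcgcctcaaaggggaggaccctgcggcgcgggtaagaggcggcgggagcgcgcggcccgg

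The interval was 80.2% G or C. It held 1 match to CCAAT, 22 nt from the start of COL4A1 and 101 nt from that of COL4A2, and 1 match to GGGCGG, 62 and 60 nt from these starts. TATAAA had 0 matches. The 3 motifs were searched on both strands and do not overlap here. Of 34943 windows of the same length just before a start in that table, 21.1% held CCAAT, 34.5% GGGCGG and 5.88% TATAAA. A match describes letters only, and binding of any factor was not measured. Promoter activity was not measured either, and a part of this interval in the numbers of clusters was not tested.

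COL4A1 and COL4A2 had more tested clusters in both TGFβ1 libraries than in either control library. COL4A1 had 27 and 30 clusters in control replicates 1 and 2, and 89 and 112 in TGFβ1 replicates 1 and 2. Per 10000 clusters of the library these were 5.27 and 7.52 against 28.58 and 20.54, a mean of 6.39 ± 1.6 against 24.56 ± 5.69 (SD, n = 2 each) and a ratio of 3.84 (exact permutation test, two-sided, p = 0.33, the smallest possible). COL4A2 had 52 and 55 against 106 and 134 clusters. Per 10000 these were 10.14 and 13.79 against 34.04 and 24.57, a ratio of 2.45 with the same exact p of 0.33. The groups did not overlap for either gene.

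Groups without overlap were common in these libraries. Of 2284 protein-coding genes with at least 20 tested clusters, 32.7% had both TGFβ1 libraries above both control libraries, and 26.4% had both below. Of the 9 members, 2 were above and 4 below, so these counts are not set apart from the background. By the ratio itself COL4A1 ranked 78 and COL4A2 ranked 207 from the highest of the 2284 genes, whose median ratio was 1.11. The number of clusters depends on the RNA present and on the immunoprecipitation, and their parts were not tested. In such bulk samples fewer cells of a type and less RNA per cell cannot be told apart. KRT7, in the cholangiocyte list, also had more clusters in TGFβ1 libraries (1 and 2 against 13 and 17). That list of 4 genes summed to 2 and 3 against 15 and 18 clusters, with KRT19 and EPCAM at 0 in all 4 libraries, and its part in the result was not tested.

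Few clusters of the type IV collagen genes passed both limits. COL4A1 had 1 enriched cluster among 258 over the 4 libraries, and COL4A2 had 1 among 347, both in TGFβ1 replicate 2. With a log2 fold limit of 2 these counts were 4 and 8. Clusters past the p limit but short of the fold limit numbered 0, 0, 0 and 5 for COL4A1 and 0, 1, 5 and 7 for COL4A2 in control replicates 1 and 2 and TGFβ1 replicates 1 and 2. The COL4A1 site (chr13:110175340-110175357) had a log2 fold of 3.31 there, with 1.58 in control replicate 2, 0.84 in TGFβ1 replicate 1 and no tested cluster in control replicate 1. The COL4A2 site (chr13:110480275-110480328) had 4.08 in TGFβ1 replicate 2, and 3.19, 1.72 and 2.71 in the control replicates 1 and 2 and TGFβ1 replicate 1. The 3.19 passed the fold limit with a −log10 p of 2.07, short of the p limit. Median log2 folds of all COL4A1 clusters were 0.38, 0.76, 0.62 and 0.68 in the same library order, and those of COL4A2 were 0.38, 0.26, 0.80 and 0.81. The COL4A2 medians were higher in both TGFβ1 libraries than in either control library, and the COL4A1 medians overlapped. The share of all genes with medians apart in this way is not given here, so this is a description without a test. Of the COL4A2 clusters, 33 over the 4 libraries lay where the antisense gene COL4A2-AS1 overlaps on the other strand, and 18 lay in COL4A2-AS2, whose strand the reference does not give.

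**Figure D3:**
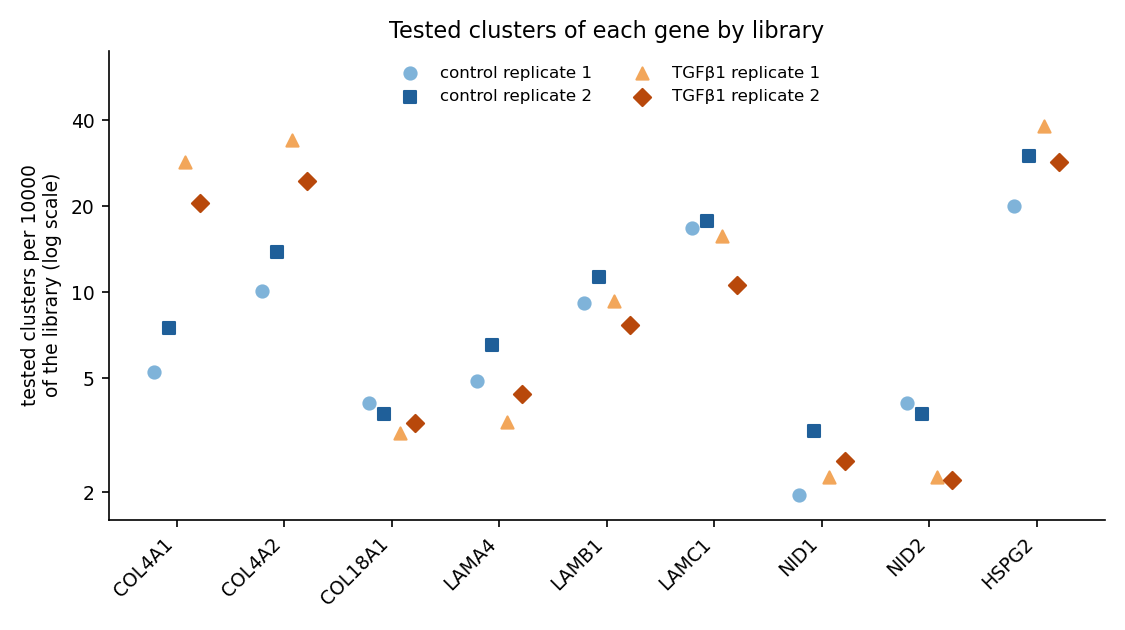
Tested clusters per 10000 of the library (y axis, log scale) for each of the 9 genes (x axis), with 1 marker per library. COL4A1 (20.54 and 28.58) and COL4A2 (24.57 and 34.04) lie higher in the 2 TGFβ1 libraries than in the controls, and NID2 (2.25 and 2.20) lies lower.

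COL18A1 encodes the core protein of a heparan sulfate proteoglycan whose C-terminal fragment is endostatin. It spans chr21:45405165-45513720 on the plus strand (108.6 kb). It had 21, 15, 10 and 19 tested clusters in control replicates 1 and 2 and TGFβ1 replicates 1 and 2, of which 1, 4, 2 and 2 were enriched. This gene thus combined few clusters with the site that was enriched in the most libraries. At that site (chr21:45480728-45480859, 69.7% of the way through the gene) the highest log2 folds were 3.36 and 5.39 in the control and 4.01 and 3.66 in the TGFβ1 libraries. The groups overlapped. The −log10 p of those clusters was 7.53, 12.76, 3.98 and 13.78.

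Each reproducible list held 2 abutting COL18A1 peaks at this place. In the control list they had log2 folds of 3.76 (chr21:45480734-45480787) and 5.14 (chr21:45480788-45480812), and the latter ranked 139 of 627 by fold. In the TGFβ1 list they had 3.81 (chr21:45480736-45480820) and 3.64 (chr21:45480821-45480859), with ranks 725 and 790 of 1008. A second site, 76.8 kb from the 5′ end (chr21:45481963-45481981), was enriched in control replicate 2 alone, at 3.65. The other libraries had 1.88 in control replicate 1, 3.20 in TGFβ1 replicate 1 with a −log10 p of 2.02, and 2.78 in TGFβ1 replicate 2. Per 10000 clusters COL18A1 had 4.10 and 3.76 in the control and 3.21 and 3.48 in the TGFβ1 libraries. These groups did not overlap, but they did when clusters were joined to sites (3.86 and 3.46 against 2.79 and 3.66).

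LAMA4, LAMB1 and LAMC1 encode the alpha-4, beta-1 and gamma-1 chains, which together form the laminin typical of vascular and mesenchymal basement membranes. LAMC1 (chr1:183023420-183145592, plus strand) had 86, 71, 49 and 58 tested clusters, LAMB1 (chr7:107923799-108003161, minus strand) had 47, 45, 29 and 42, and LAMA4 (chr6:112107931-112254985, minus strand) had 25, 26, 11 and 24. Per 10000 clusters, LAMC1 had 16.77 and 17.80 in the control and 15.74 and 10.64 in the TGFβ1 libraries, and LAMA4 had 4.88 and 6.52 against 3.53 and 4.40. For both genes the TGFβ1 libraries were lower without overlap (ratios 0.763 and 0.696; exact permutation test, two-sided, p = 0.33 each). LAMB1 had 9.17 and 11.28 against 9.31 and 7.70, and its groups overlapped.

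LAMC1 had 1 reproducible peak, in the control list. It lay 659 nt from the annotated 3′ end (chr1:183144909-183144958), with a log2 fold of 3.06 and rank 609 of 627. In the libraries the fold there was 2.88 and 3.23 in control and 2.14 and 2.16 in TGFβ1, so only control replicate 2 passed both limits. Of the 15 sites this was the only one at which the values of the conditions did not overlap, a description without a test. It was called through control replicate 2 and the control list alone, so higher control values there were favoured by the selection itself. The share of such sites over all genes is not given here. A second LAMC1 site (chr1:183103338-183103384) had 4.16 in TGFβ1 replicate 2 with a −log10 p of 13.19, beside 1.55, 1.47 and 1.37 in control replicates 1 and 2 and TGFβ1 replicate 1.

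The LAMA4 site lay 6.2 kb from the 3′ end (chr6:112114117-112114188). Its log2 folds were 3.25 and 4.07 in the control and 2.32 and 3.68 in the TGFβ1 libraries, and both replicates 2 were enriched. Control replicate 1 missed by its −log10 p of 2.30. LAMB1 had 1 site (chr7:107940253-107940335), with 3.89 in TGFβ1 replicate 2. The other libraries were not enriched there, at 2.25, 2.49 and 1.90, although the control values had a −log10 p of 3.42 and 4.21, past the p limit. Neither LAMA4 nor LAMB1 was in a reproducible list.

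NID1 and NID2 encode nidogens, glycoproteins that bind laminin and type IV collagen. NID1 (chr1:235975830-236065090, minus strand) had 10, 13, 7 and 14 tested clusters. Its 4 enriched clusters, at 3 sites, were all among the 14 of TGFβ1 replicate 2 (28.6%). At chr1:235993645-235993716 the log2 fold was 4.81 in that library and 2.65, 2.14 and 2.08 in control replicates 1 and 2 and TGFβ1 replicate 1. At chr1:235991029-235991060 it was 4.63 beside 2.38, 2.65 and 1.79, and at chr1:236038109-236038166 it was 3.89 beside 2.70, 1.96 and 2.08. All 3 sites thus had tested clusters with positive folds below the limit in each of the other libraries.

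NID2 (chr14:52004809-52069059, minus strand) had 21, 15, 7 and 12 clusters, or 4.10 and 3.76 against 2.25 and 2.20 per 10000. The TGFβ1 libraries were lower without overlap, at a ratio of 0.566 (exact permutation test, two-sided, p = 0.33). Its site (chr14:52060179-52060256) lay 8.8 kb from the 5′ end, the nearest to a 5′ end among the 15. The log2 folds were 2.60 and 4.39 in the control and 3.62 and 3.31 in the TGFβ1 libraries. TGFβ1 replicate 1 missed the p limit narrowly, with a −log10 p of 2.98, so the site was enriched in control replicate 2 and TGFβ1 replicate 2. Neither nidogen gene was in a reproducible list.

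HSPG2 encodes perlecan, a large heparan sulfate proteoglycan that links the laminin and collagen networks and binds growth factors. It spans chr1:21822244-21937310 on the minus strand (115.1 kb) and had the most tested clusters of the 9 genes over the 4 libraries, at 103 and 120 in the control and 119 and 156 in the TGFβ1 libraries. Enriched clusters numbered 1, 1, 4 and 5. Per 10000 clusters HSPG2 had 20.09 and 30.09 against 38.22 and 28.60, and these groups overlapped. The median log2 fold of its clusters was low, at 0.12, 0.26, 0.30 and 0.06.

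The HSPG2 site at 56.8 kb (chr1:21880460-21880560) held 1 peak in the control list and 4 abutting peaks in the TGFβ1 list. Its highest log2 folds were 3.84 and 2.96 in the control and 3.53 and 6.63 in the TGFβ1 libraries, with a −log10 p of 7.81, 6.51, 12.37 and 58.91. TGFβ1 replicate 2 was far above the other 3 libraries, and the groups overlapped. The 4 TGFβ1 list peaks had log2 folds of 3.72 to 5.24, and the highest (chr1:21880509-21880520) ranked 290 of 1008. The control list peak (chr1:21880460-21880522) had 3.42 and ranked 514 of 627.

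The HSPG2 site at 47.3 kb (chr1:21889980-21890080) was in both lists too, at 3.58 in control and 3.32 in TGFβ1. The libraries had 2.73 and 4.19 in control and 3.68 and 2.95 in TGFβ1, so 1 replicate of each condition passed. The value of 2.95 missed the fold limit although its −log10 p was 17.90. Another site, near the 3′ end (chr1:21828029-21828110) was enriched in TGFβ1 replicate 2 alone, at 3.02, and had 1.91, 2.51 and 1.94 elsewhere. Of the HSPG2 clusters, 42 lay where LDLRAD2 overlaps on the other strand. Opposite-strand genes also covered 27 (LOC107986633) and 16 (LAMA4-AS1) of the LAMA4 clusters, 9 of the COL18A1 clusters (SLC19A1) and 8 of the NID2 clusters (RTRAF). No cluster of any library lay on the opposite strand within the bounds of the 9 genes.

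**Figure D4:**
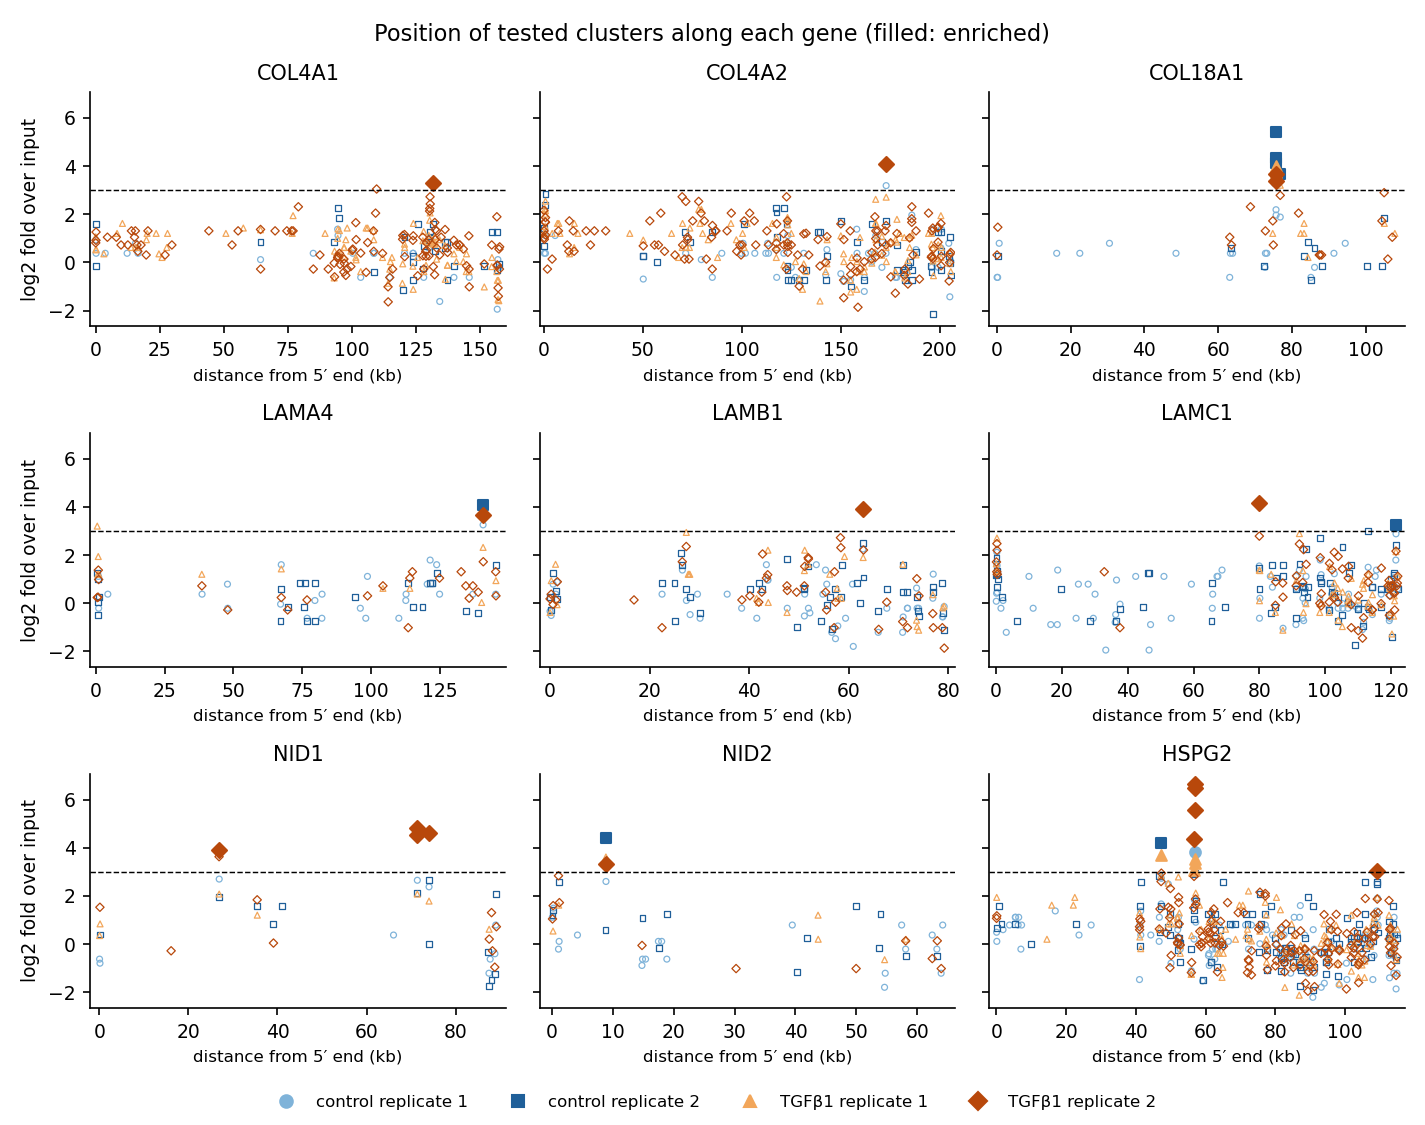
Log2 fold over input (y axis) of every tested cluster against its distance in kb from the gene's annotated 5′ end (x axis), in 1 panel per gene; marker shape and colour give the library, filled markers are enriched, and the dashed line is a log2 fold of 3. Enriched clusters of COL18A1 gather near 75.6 kb and those of HSPG2 at 47.3 and 56.8 kb, while COL4A1 and COL4A2 carry many clusters below the line.

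The 15 sites lay far from the 5′ ends, at 8.8 kb or more, with 4 in the first 50% of the gene's length and 11 beyond it. The same split of all tested clusters of these genes is not given here, so the 4 and 11 describe the sites only. Clusters near the 5′ ends were tested but were not enriched. In the first 500 nt the 9 genes had 19, 17, 15 and 22 tested clusters in control replicates 1 and 2 and TGFβ1 replicates 1 and 2, and 0 were enriched. A count of 0 allows a share of up to 13.6% in TGFβ1 replicate 2, which had the most clusters there, and 0 of 73 over the libraries allows up to 4.11%. Both limits take clusters as independent. Several of the 73 lay at the same place in more than 1 library, so 4.11% is too low a limit. Over all protein-coding genes, 1.88%, 1.92%, 2.17% and 3.11% of clusters in this window were enriched, so a share at this background was not detectable in the 9 genes.

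The fibrillar collagen mRNAs stood in contrast. COL1A1, COL1A2 and COL3A1 together had 16, 15, 17 and 17 tested clusters in the window, and 16, 15, 17 and 17 were enriched. The highest log2 fold in the window over the 9 basement membrane genes was 3.20, for LAMA4 in TGFβ1 replicate 1 (−log10 p of 2.02), and was 2.12, 1.88 and 2.48 in the other 3 libraries, each time in LAMC1. The highest for COL3A1 was 9.36, 9.06, 9.14 and 9.48. The groups of genes did not overlap in any library, which is a description without a test.

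LAMC1 had the most clusters at its 5′ end, at 6, 5, 4 and 5. Of these 2, 4, 4 and 5 passed the p limit while staying below the fold limit, with highest log2 folds of 2.12, 1.88, 2.71 and 2.48. COL18A1 has a further start site in the RefSeq promoter table, and the listed start of LAMA4 differs from the gene's bound. When 500 nt from each of the 10 listed starts of the 9 genes were taken, 0 of 81 clusters were enriched.

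**Figure D5:**
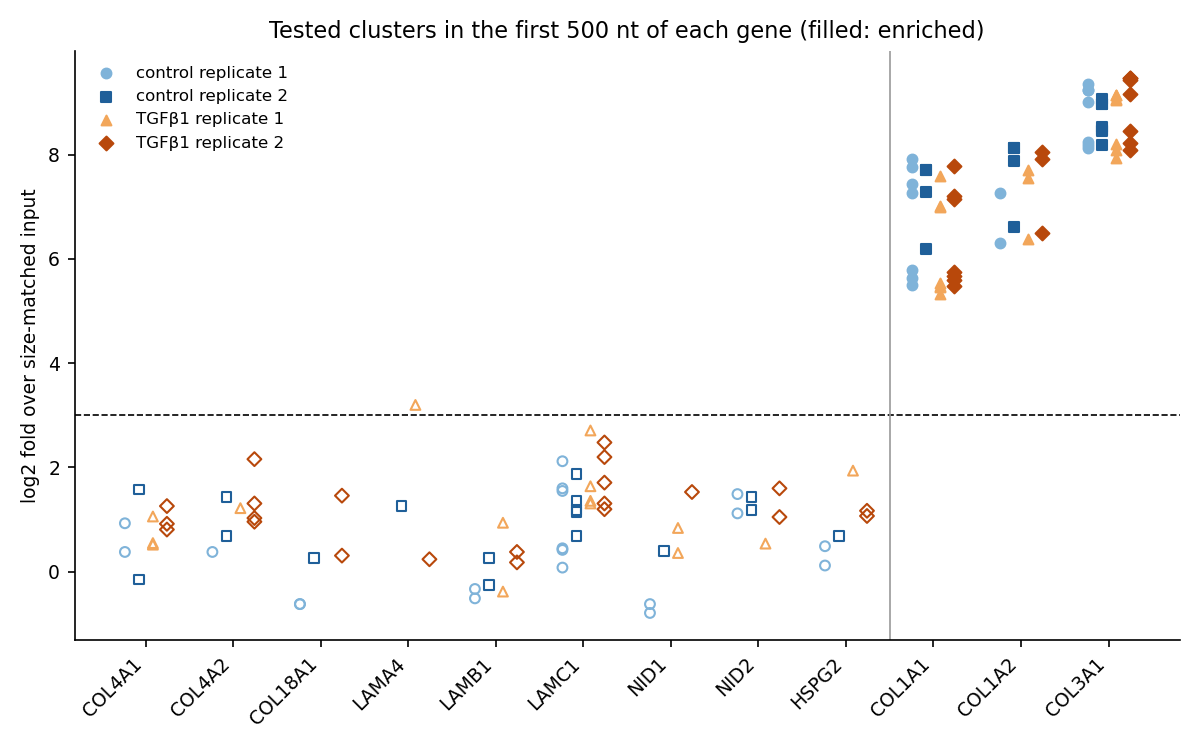
Log2 fold over size-matched input (y axis) of each tested cluster in the first 500 nt of a gene, for the 9 basement membrane genes and, right of the grey line, COL1A1, COL1A2 and COL3A1 (x axis); marker shape and colour give the library, filled markers are enriched, and the dashed line is a log2 fold of 3. No marker of the basement membrane genes is filled, and every marker of the fibrillar collagens is.

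Among 27 other basement membrane components, 14 had a tested cluster in any library and 4 had a reproducible peak. Of the 10 and 12 with clusters in each control and each TGFβ1 library, 1 and 4 had a peak. The shares of all protein-coding genes given above were 3.91% and 7.08%, or 6.96% and 12.1% of those with at least 20 tested clusters. AGRN, which encodes the proteoglycan agrin, had 1 peak in each list (log2 fold 4.06 in control and 4.96 in TGFβ1). LAMA5, the laminin alpha-5 chain (4.40), PXDN, the peroxidasin that crosslinks type IV collagen (3.93), and HMCN1, the hemicentin-1 gene (3.42), had 1 each in the TGFβ1 list alone. In control replicate 2, however, LAMA5 and HMCN1 had 1 enriched cluster each, among 9 and 7 tested. PXDN had 0 in both control libraries. LAMB2, with 14, 22, 15 and 28 tested clusters, SPARC, with 28, 30, 37 and 46, and FBLN1, with 46, 39, 16 and 19, had 0 enriched clusters in any library. COL4A3, COL4A5 and COL4A6 had no tested cluster.

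Of 15 receptor genes for basement membranes, 13 had a tested cluster and 2 a reproducible peak. Of the 9 and 11 with clusters in each control and each TGFβ1 library, 1 and 2 had a peak. The shares beside them are the same 3.91% and 7.08%, or 6.96% and 12.1% with at least 20 tested clusters. ITGB1, the beta-1 integrin chain shared by most laminin and collagen receptors, had 3 control and 6 TGFβ1 peaks (highest 3.92 and 3.95). DDR2, a collagen-binding receptor tyrosine kinase, had 2 in the TGFβ1 list alone (highest 4.76), but also 1 enriched cluster among 63 in control replicate 2. DAG1, the dystroglycan gene, had 2 enriched clusters in TGFβ1 replicate 2 and was in neither list. In both lists, genes to which no strand could be assigned count as without a cluster.

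By the percent of enriched clusters in the 4 libraries, the nearest of 149 other genes with at least 20 clusters in each library were SLC22A23, PLEC and DDR2 for HSPG2, at Euclidean distances of 1.34, 1.43 and 1.48 percentage points. HSPG2 itself had 0.971%, 0.833%, 3.36% and 3.21%. SLC22A23 had 0%, 0%, 3.7% and 3.03%, and PLEC had 1.45%, 1.37%, 4.55% and 2.86%. For LAMC1 they were ITGA11, KLC1 and TLN1, at 1.42, 1.42 and 1.45. LAMC1 had 0%, 1.41%, 0% and 1.72%. The 3 others had 0% in all libraries but TGFβ1 replicate 2 (1.87%, 1.89% and 1.37%), so these distances compare values near 0. COL18A1 had too few clusters for this comparison.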

How the data were processed

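The authors deposited 1 peak list per immunoprecipitated library and 1 list per condition from both replicates, without headers. The submitters' processing notes name cutadapt, UMI-tools, STAR and GRCh38, without versions or order. How peaks were called, normalised to input and joined across replicates is not given in the sources used here. From the range of values, the 2 columns were read as the authors' deposited log2 fold over input and the authors' deposited −log10 p-value, capped at 400. Neither was recomputed. Inputs entered only through these values.

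Clusters were assigned by midpoint and strand to RefSeq bounds (GRCh38.p14). Strands came from the RefSeq promoter table and, for genes absent from it such as the 3 fibrillar collagens, from at least 80% of at least 3 clusters. Coordinates are 1-based. Overlap meant at least 1 nt on the same strand. Tested clusters per 10000 were used to set libraries of different size side by side. Library values were compared by exact permutation. The code was checked on simulated clusters.

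The named genes were all 9 members, genes of the 2 further lists with a reproducible peak (at most 10 each by fold), the 3 nearest genes by percent enriched for members with a reproducible peak, and the 3 fibrillar collagens. LAMB2, SPARC, FBLN1, COL4A3, COL4A5, COL4A6 and DAG1 were added after their values were seen, as was the comparison of cluster numbers. Values of 1 further gene are not reported here. The members and lists were chosen with earlier results of these data known. The alternatives changed the fold limit, the p limit or the overlap, joined clusters to sites, assigned by any overlap, built a reproducible list from overlapping enriched clusters, dropped single replicates, or blocked on the replicate number. Software was Python 3.11.15 with SciPy 1.17.1, matplotlib 3.10.9, pandas 2.3.3 and NumPy 2.4.6.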

Additional observations from a re-analysis of the deposited data

How the results depend on the processing

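The difference in enriched share between TGFβ1 and control libraries kept its direction in all alternatives run, from 0.12 to 1.94 percentage points. With the replicate number as a block it was 0.91 (exact permutation within pairs, two-sided, p = 0.50, the smallest possible); the labels do not say that a number marks a shared culture or day. Leaving out 1 library gave 0.12 to 1.70, with the lowest values without control replicate 1 (0.14) or TGFβ1 replicate 2 (0.12), 0.51% to 2.05% for the control share and 1.41% to 2.98% for the TGFβ1 share. A log2 fold limit of 2 gave shares of 2.56% in control and 4.5% in TGFβ1, and a limit of 4 gave 0.905% in TGFβ1.

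The lists rest on few peaks. With a log2 fold of at least 4, 1 control peak in 1 gene and 3 TGFβ1 peaks in 1 gene remained in number, and 0 of either overlapped the other list (0%). When overlapping enriched clusters of both libraries stood for the list, there were 3 in 1 gene for control and 11 in 2 genes for TGFβ1. These numbers count the clusters of both libraries at the same place, so they cannot be set against the numbers of list peaks. Joined peaks made 3 TGFβ1 sites. When the enriched clusters of 1 library stood for a list, control had 2 to 8 peaks in 2 to 5 genes and TGFβ1 had 6 to 17 in 2 to 9 genes, the higher values coming from replicates 2. The overlap with the other list then ranged from 50.0% to 100.0% for control peaks and from 35.3% to 83.3% for TGFβ1 peaks (4 of 5 and 6 of 7 in the deposited lists). The cause was not tested.

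For tested clusters, the scalings were chosen after seeing the data. COL4A1 had ratios of 3.21 to 4.66 and COL4A2 of 2.05 to 2.89 with 1 library left out. The NID1 ratio of 0.924 ranged from 0.739 without control replicate 1 to 1.23, the other direction, without control replicate 2. The groups of COL18A1 overlapped under 3 of the 4 other measures, and those of LAMB1, which overlapped in the main measure, did not by covered nt or without scaling. Depth could not be assessed without counts.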
